A study of Mus musculus with 89 samples.

Results

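The Ts66Yah colony entered the series as 6 litters of E18.5 mouse forebrain, and the question taken up here is which genes differed between those litters once genotype was allowed for. A litter is all embryos of 1 dam, and the dams are labelled WT11, WT12, WT13, WT15, WT18 and WT19. Members were the arrays whose genotype label is Ts66Yah or EupTs66Yah, apart from WT18 replicate 9, whose values were compressed into a narrow range. This left 47 of the 89 arrays, each from 1 embryo, with log2 signals of 22206 probe sets. WT11 gave 4 embryos, WT12 gave 9, WT13 gave 8, WT15 gave 7, WT18 gave 10 and WT19 gave 9.

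Ts66Yah embryos carry an additional chromosome with the part of mouse chromosome 16 that matches human chromosome 21, but without the stretch of chromosome 17 that the older Ts65Dn line also carries. EupTs66Yah embryos are their euploid littermates. Both genotypes share a mixed C57BL/6 and C3H background, and neither is labelled as treated. B6EiC3Sn.BLiAF1/J males sired the litters of the founder females, which came from the Herault laboratory, and the colony was then enlarged by in vitro fertilization with sperm from several Ts66Yah males. The labels give a dam for each embryo and no sire. Ts66Yah and euploid embryos numbered 3 and 1 in WT11, 4 and 5 in WT12, 6 and 2 in WT13, 3 and 4 in WT15, 5 and 5 in WT18, and 3 and 6 in WT19. Dams were anesthetized with isoflurane, and the embryos' hemispheres were dissected and snap-frozen before RNA extraction. Because all embryos of a litter were taken from 1 dam, the dam, the day and hour of harvest, the dissection and any array run that followed litter cannot be told apart.

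Near birth the mouse forebrain still divides in its ventricular zones while cortical neurons migrate and extend axons and glial genes begin to be expressed, so a small difference in stage can be read from genes of progenitors, neurons and glia. Residual blood adds erythroid transcripts, and a shifted dissection plane adds genes of hindbrain, choroid plexus or meninges. Immediate early genes are transcribed within minutes of a stimulus such as stress, hypoxia or neuronal firing, and their levels can therefore record the last moments before tissue is frozen.

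Array means lay between 6.35 and 6.41 in all 47 embryos, and array SDs between 2.23 and 2.4. In 5 euploid embryos the SD was lower than in the rest, at 2.23 to 2.27 (WT15 replicate 1, WT18 replicates 5 and 10, and WT19 replicates 3 and 8); these are called the narrower arrays below. The labelled sex and the level of the Y-linked Kdm5d, Uty and Eif2s3y contradicted each other in 8 embryos: WT11 replicate 4, WT13 replicate 5, WT15 replicate 8, WT18 replicates 1 and 5, and WT19 replicates 1, 2 and 10. In 3 embryos the extra chromosome 16 genes contradicted the labelled genotype: WT13 replicate 8 and WT19 replicate 7 are labelled Ts66Yah and WT19 replicate 10 is labelled euploid. The labels do not resolve this, so all 47 were kept and the main results are given with and without the 8 embryos, called doubtful below. Of the 11 probe sets for telencephalon markers, which check the labelled tissue, 9 had a mean at or above the table's median signal of 6.35.

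Litters differed at few probe sets. The F test of the 6 litter means, with genotype as covariate and limma's moderated variance, called 20 of 22206 probe sets at an adjusted p under 0.10 (Benjamini-Hochberg over all probe sets), which is 0.0901%. Of the 20, 18 have a gene name. At an unadjusted p under 0.05 the count was 2555, or 11.5% of the table. The range between the highest and lowest litter mean, adjusted for genotype, had a median of 0.31 log2 over all probe sets and 0.57 over those called. Ccn1, Jun, Arrdc3 and the linker histones H1f2 and H1f3 were highest in WT18. Uqcr10, Uqcc2, Anapc13 and Pmm1 were highest in WT11. Cat and Prxl2a were highest in WT13 and lowest in WT19, as the map of litter means shows. Leaving out the 8 doubtful embryos gave a count of 134 (0.603%) and kept 13 of the 18 named genes. Leaving out the 3 embryos of contradicted genotype gave 8, all of them among the 18.

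**Figure D1:**
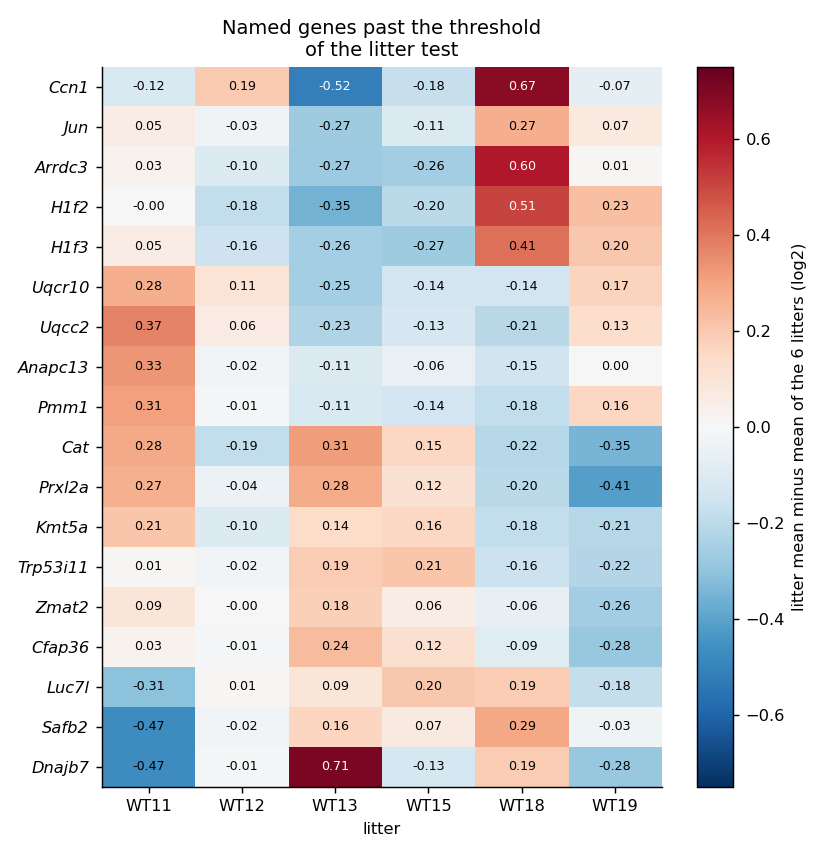
Litter means of the 18 named genes past the threshold of the litter test, adjusted for genotype, as log2 differences from the mean of the 6 litters (columns are litters, rows are genes, red is higher). Ccn1 and Arrdc3 stand highest in WT18, Uqcc2 in WT11 and Dnajb7 in WT13, while WT12 is the highest or lowest litter for 0 of them.

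Ccn1, which encodes a secreted matrix-associated growth regulator and is an immediate early gene, had the smallest p of the table. In WT18 its log2 signal ran from 7.12 to 9, with a median of 8.58. In WT12 it ran from 7.44 to 8.27 with a median of 7.92. WT13 had the lowest values, from 6.86 to 7.72 with a median of 7.18. The 4 embryos of WT11 read 7.5, 8.02, 7.68 and 7.28. WT15 lay between 7.13 and 8 with a median of 7.6, and WT19 between 7.2 and 8.14 with a median of 7.49. No embryo of another litter was above the WT18 median, yet 2 of the 10 WT18 embryos lay below the median of the other litters. The adjusted litter means spanned 2.29-fold, with an adjusted p of 0.02 in limma's F test. WT18 was 1.76-fold above the mean of the other 5 litters (log2 difference 0.81 ± 0.13 SE, adjusted p = 0.0021 by limma).

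The 2 low WT18 embryos, replicates 1 and 5 with Ccn1 at 7.58 and 7.12, are both doubtful, labelled female with the Y-linked genes at a mean of 8.37 and 7.87. The highest WT19 values, 8.1 in replicate 1 and 8.14 in replicate 2, also come from doubtful embryos, labelled male with a Y-linked mean of 2.91 and 2.77. Without the 8 doubtful embryos, the 8 remaining in WT18 read 8.31 to 9 for Ccn1 and the 31 in the other litters 7.05 to 8.27, with no overlap. WT18 was then 2.05-fold higher (log2 difference 1.04 ± 0.099 SE, adjusted p = 2.4e-08 by limma).

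Arrdc3, an arrestin-domain protein that acts in receptor trafficking and responds to glucocorticoid and metabolic signals, followed the same embryos. Its log2 signal in WT18 ran from 8.94 to 10.26 with a median of 10.11. The other medians were 9.39 in WT11, 9.28 in WT12, 9.09 in WT13, 9.02 in WT15 and 9.19 in WT19. WT11, WT12, WT13 and WT15 together reached no higher than 9.57, whereas WT19 reached 10.24. WT18 was 1.64-fold above the other litters (log2 difference 0.72 ± 0.11 SE, adjusted p = 0.0021 by limma). WT18 replicates 1 and 5 read 9.33 and 8.94 for Arrdc3, while WT19 replicates 1 and 2 read 9.99 and 10.24. With the 8 doubtful embryos left out, WT18 lay between 9.95 and 10.26 and the others between 8.85 and 9.57, a 1.93-fold difference (adjusted p = 2.6e-11 by limma). Whether these embryos were exchanged between litters was not tested.

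**Figure D2:**
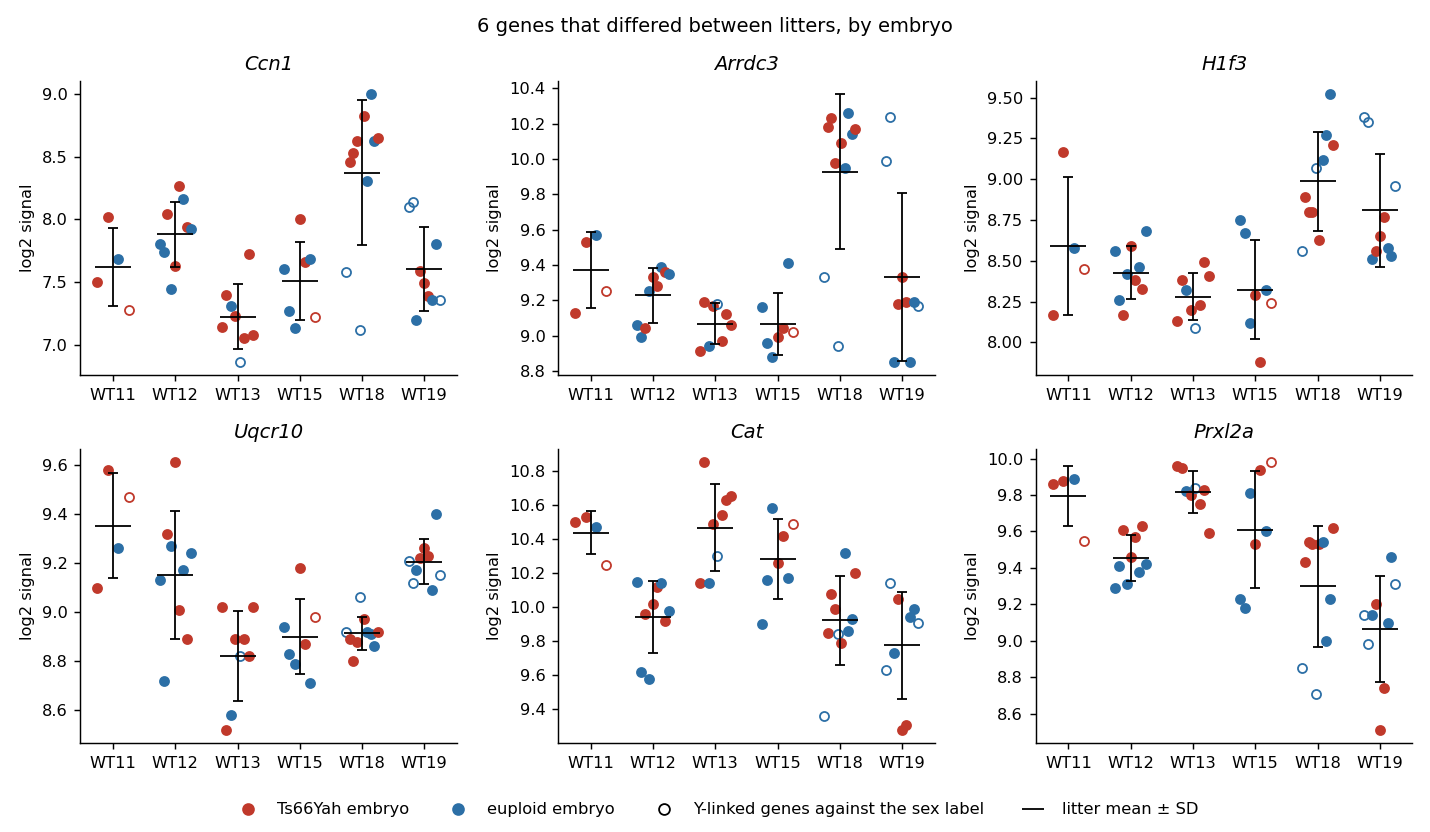
Log2 signal of 6 genes in each of the 47 embryos by litter (points, coloured by genotype; bars are the litter mean ± SD). Open points are the 8 embryos in which Y-linked genes contradict the labelled sex, among them the 2 lowest WT18 points and the 2 highest WT19 points for Arrdc3.

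Jun, the transcription factor subunit of AP-1, was higher in WT18 with less spread. All 10 WT18 embryos, between 8.7 and 9.17 log2 units, were above the median of the other litters. The medians were 8.85 in WT11, 8.63 in WT12, 8.44 in WT13, 8.54 in WT15, 9.01 in WT18 and 8.83 in WT19. WT18 was 1.26-fold above the other litters in Jun (log2 difference 0.33 ± 0.066 SE, adjusted p = 0.035 by limma). Leaving out the 8 doubtful embryos, the difference was 0.39 (adjusted p = 0.0042 by limma). By litter means adjusted for genotype WT13 was the lowest litter for Jun, as for Ccn1 and Arrdc3, but for none of these genes did its own difference from the other litters pass the threshold in all 47 embryos.

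The starts of Jun and Ccn1 are shown because both passed the test in the same direction and each holds a short element known from stimulus-responsive promoters. The sequences are RefSeq's, build GRCm38.p6 and each spans a start site, on the minus strand at chr4:95052173-95052472 for Jun and at chr3:145649936-145650235 for Ccn1. Capitals mark TGACATCA and CCAAT in Jun, and TACGTCA and TATAAA in Ccn1, searched on both strands.
Jun: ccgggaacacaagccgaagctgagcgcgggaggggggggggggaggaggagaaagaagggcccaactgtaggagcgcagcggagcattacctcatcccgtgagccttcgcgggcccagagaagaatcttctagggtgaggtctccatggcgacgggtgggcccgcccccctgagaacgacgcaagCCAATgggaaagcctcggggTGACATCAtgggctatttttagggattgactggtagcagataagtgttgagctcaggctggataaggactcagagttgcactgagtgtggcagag
Ccn1: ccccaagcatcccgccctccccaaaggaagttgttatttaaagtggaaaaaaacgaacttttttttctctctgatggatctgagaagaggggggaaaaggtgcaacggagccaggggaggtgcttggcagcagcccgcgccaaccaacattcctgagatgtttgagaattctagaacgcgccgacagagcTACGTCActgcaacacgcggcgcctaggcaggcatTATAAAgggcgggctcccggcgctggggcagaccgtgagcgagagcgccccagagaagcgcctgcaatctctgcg
Of the 32851 promoters of this length, TGACATCA was found in 3.62%, TACGTCA in 1.27%, TATAAA in 13.6% and CCAAT in 37.4%. The matches describe these windows and were not tested as binding sites.

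The list of immediate early genes has 25 genes on 27 probe sets. Ccn1 and Jun passed the F test, and 9 of the 27 (33.3%) had an unadjusted p under 0.05, beside 11.5% of all probe sets. Against the other litters WT18 was higher at 19 of the 27, with a median log2 difference of 0.09 beside -0.009 over all probe sets, and at 24 of the 27 (median 0.13) without the 8 doubtful embryos. Most of the list is dim, with 9 of 27 probe sets at or above the median signal of the table, 6.35. Fos, a common reporter of recent stimulation, had an adjusted p of 0.23 in the F test and was highest in WT19 by adjusted litter mean, without passing. Egr1 read 1.36-fold higher in WT18 with an adjusted p of 0.29, and Dusp1, a phosphatase that ends MAP kinase signals, 1.27-fold with an adjusted p of 0.17, so neither passed. Without the 8 doubtful embryos the log2 difference was 0.63 ± 0.13 SE for Egr1 (adjusted p = 0.021 by limma) and 0.46 ± 0.083 SE for Dusp1 (adjusted p = 0.0064), and both then passed. In that fit 5 of the 27 probe sets passed in WT18, all higher, and 0 in WT19, beside 0.779% and 0.82% of all probe sets.

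H1f2 and H1f3, the replication-dependent linker histones H1.2 and H1.3, were also highest in WT18. The log2 signal of H1f3 ran from 8.56 to 9.52 in WT18 with a median of 8.98, and all 10 embryos were above the median of the other litters. Its medians elsewhere were 8.52 in WT11, 8.42 in WT12, 8.28 in WT13, 8.29 in WT15 and 8.65 in WT19. WT18 was 1.41-fold above the other litters in H1f3 (log2 difference 0.49 ± 0.097 SE) and 1.52-fold in H1f2 (0.61 ± 0.12 SE), each with an adjusted p of 0.035 by limma. H1f2 ran from 6.62 to 8.17 in WT18 (median 7.67), against a median of 7.29 in WT19 and 6.64 in WT13. Its lowest WT18 value, 6.62, came from replicate 1, and its highest WT19 value, 8.01, from replicate 1 of that litter, both of doubtful label. With the 8 doubtful embryos left out, the differences were 0.58 for H1f3 (adjusted p = 0.0024) and 0.79 for H1f2 (adjusted p = 0.00019, both by limma).

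The starts of H1f2 and H1f3 are shown because the pair moved together and both hold the H1 box AAACACA, an element known from linker histone promoters, and a CCAAT box, in capitals. The RefSeq windows lie on the plus strand of GRCm38.p6 at chr13:23738557-23738856 and chr13:23554782-23555081, and AAACACA begins 112 and 122 bases before the start.
H1f2: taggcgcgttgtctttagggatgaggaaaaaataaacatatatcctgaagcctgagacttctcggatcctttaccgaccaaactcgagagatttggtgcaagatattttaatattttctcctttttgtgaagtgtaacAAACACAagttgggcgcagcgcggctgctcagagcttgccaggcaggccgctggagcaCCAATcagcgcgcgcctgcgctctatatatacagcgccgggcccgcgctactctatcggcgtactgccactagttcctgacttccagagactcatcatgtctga
H1f3: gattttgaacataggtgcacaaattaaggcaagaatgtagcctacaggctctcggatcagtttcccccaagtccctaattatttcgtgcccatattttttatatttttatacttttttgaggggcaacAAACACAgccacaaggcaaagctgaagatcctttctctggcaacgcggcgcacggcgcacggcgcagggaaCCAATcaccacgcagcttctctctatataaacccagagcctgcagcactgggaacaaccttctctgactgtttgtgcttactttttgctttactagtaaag
AAACACA was found in 7.18% of all promoters of this length. The windows of H1f4 and H1f5 hold both elements too, and H1f5 did not pass (adjusted p = 0.35 by limma's F test). The replication-dependent histones, H1f2 and H1f3 among them, are a group of 53 probe sets listed after the values were seen. WT18 was above the other litters at 48 of the 53 and WT19 at 45, beside 47.1% and 49.5% of all probe sets. The median log2 differences of the group were 0.09 and 0.11. In WT15 4 of the 53 were above the other litters (median -0.15) and in WT12 9 (-0.05), beside 49.5% and 53% of all probe sets. Without the doubtful embryos WT18 and WT19 were each higher at 40 of the 53, each with a median of 0.09. H1f2 and H1f3 alone of the 53 passed the F test, and 7 (13.2%) had an unadjusted p under 0.05. That share was 11.5% over all probe sets and 15.1% over those at or above the median signal, where 51 of the 53 lie. Core histone genes are near-identical copies, so their probe sets can share signal and are not separate observations. WT18 was higher at 52 of the 53 in euploid embryos but at 26 in Ts66Yah embryos, and at 36 without the narrower arrays. In the same order WT19 was higher at 48, 44 and 48, and WT15 at 15, 1 and 1. The cell cycle and mitosis list had a median difference of 0.03 in WT18 and -0.11 in WT19.

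WT11, the smallest litter, had the highest litter mean of Uqcr10 and Uqcc2, genes of a complex of the mitochondrial respiratory chain. Uqcr10, a subunit of complex III (ubiquinol-cytochrome c reductase), read 9.1, 9.58, 9.26 and 9.47 in the 4 WT11 embryos. WT12 ran from 8.72 to 9.61 with a median of 9.17, and WT19 from 9.09 to 9.4 with a median of 9.21. WT13 had a median of 8.86, WT15 of 8.87 and WT18 of 8.91, with WT18 between 8.8 and 9.06. WT11 and WT19 therefore lay above WT18 with no overlap, and WT12 spanned both. The litter means of Uqcr10 spanned 1.44-fold (adjusted p = 0.024 by limma's F test, 0.055 without the 8 doubtful embryos).

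Uqcc2, an assembly factor of the same complex, had, like Uqcr10, its highest litter mean adjusted for genotype in WT11 and its lowest in WT13. WT11 read 8.92, 9.51, 9.2 and 9.4, WT19 had a median of 8.97, and WT13 and WT18 had medians of 8.66 and 8.62. The means spanned 1.51-fold (adjusted p = 0.05 by limma's F test, 0.055 without the 8 doubtful embryos). Uqcrh, another subunit of the complex and the leading gene of the oxidative phosphorylation list, missed the threshold with an adjusted p of 0.11. Its medians were 10.93 in WT11 and 10.45 in WT18. Anapc13, a subunit of the anaphase-promoting complex, was 1.32-fold higher in WT11 than in the other litters (adjusted p = 0.06 by limma), the only probe set past the threshold in that comparison (1 of 22206, 0.0045%). The 4 WT11 values of Anapc13 were 10.66, 10.85, 10.69 and 10.6, above all 43 other embryos. Without the 8 doubtful embryos, which leaves 3 in WT11, the adjusted p of that difference was 0.17. Pmm1, a phosphomannomutase, was also highest in WT11, but its own difference there had an adjusted p of 0.14.

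The nuclear oxidative phosphorylation list does not hold Uqcr10 or Uqcc2. Of its 55 probe sets none passed at 10%, yet 26 (47.3%) had an unadjusted p under 0.05. The cytosolic ribosomal proteins gave 21 of 50 (42%). Both lists are bright, and among all probe sets at or above the median signal the share was 15.1%. The median log2 difference of the oxidative phosphorylation genes was 0.15 in WT11 and -0.1 in WT18, where 49 and 1 of the 55 were higher. For the ribosomal proteins it was 0.14 and -0.08, with 44 and 3 of 50 higher. These directions were the same after median centring, quantile normalization and a covariate for array spread. By genotype, the WT18 median for oxidative phosphorylation was -0.19 in Ts66Yah embryos (3 of 55 higher) and -0.04 in euploid embryos (21 of 55). For the ribosomal proteins in WT18 it was -0.15 (4 of 50) and 0.01 (29 of 50). The WT11 medians were 0.14 and 0.16 for oxidative phosphorylation and 0.18 and 0.06 for ribosomal proteins, with 1 euploid embryo. Averaged within each embryo, the oxidative phosphorylation list averaged 9.58 to 9.89 log2 units in WT11 and 9.37 to 9.6 in WT18, so the litters overlapped. WT11 replicates 1 to 4 read 9.58, 9.89, 9.66 and 9.62, beside medians of 9.59 in WT12 and in WT19. For the ribosomal proteins they read 11.18, 11.48, 11.18 and 11.3, beside medians of 11.18 in WT12 and in WT19. Replicate 2 was thus the highest WT11 embryo for both lists. Genes of one list share each embryo's RNA and array and are not separate observations. Marker lists of other cells and regions leaned to one side in WT11 as well. Against the other litters, WT11 was higher at 40 of 45 placental probe sets (median log2 difference 0.38), 20 of 23 of meninges and mural cells (0.2), 17 of 18 of astrocytes (0.2) and 0 of 11 of telencephalon (-0.12), beside 51.5% of all probe sets. In the same order, the medians in Ts66Yah embryos and in the 1 euploid embryo of WT11 were 0.49 and 0.16, 0.14 and 0.39, 0.06 and 0.4, and -0.15 and -0.11. At an unadjusted p under 0.05 in the F test were 5 of 45, 4 of 23, 0 of 18 and 0 of 11, beside 11.5% of all probe sets. Of the 45 placental probe sets, 1 was at or above the median signal. The part of these marker lists in the difference of the oxidative phosphorylation and ribosomal protein lists was not tested.

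**Figure D3:**
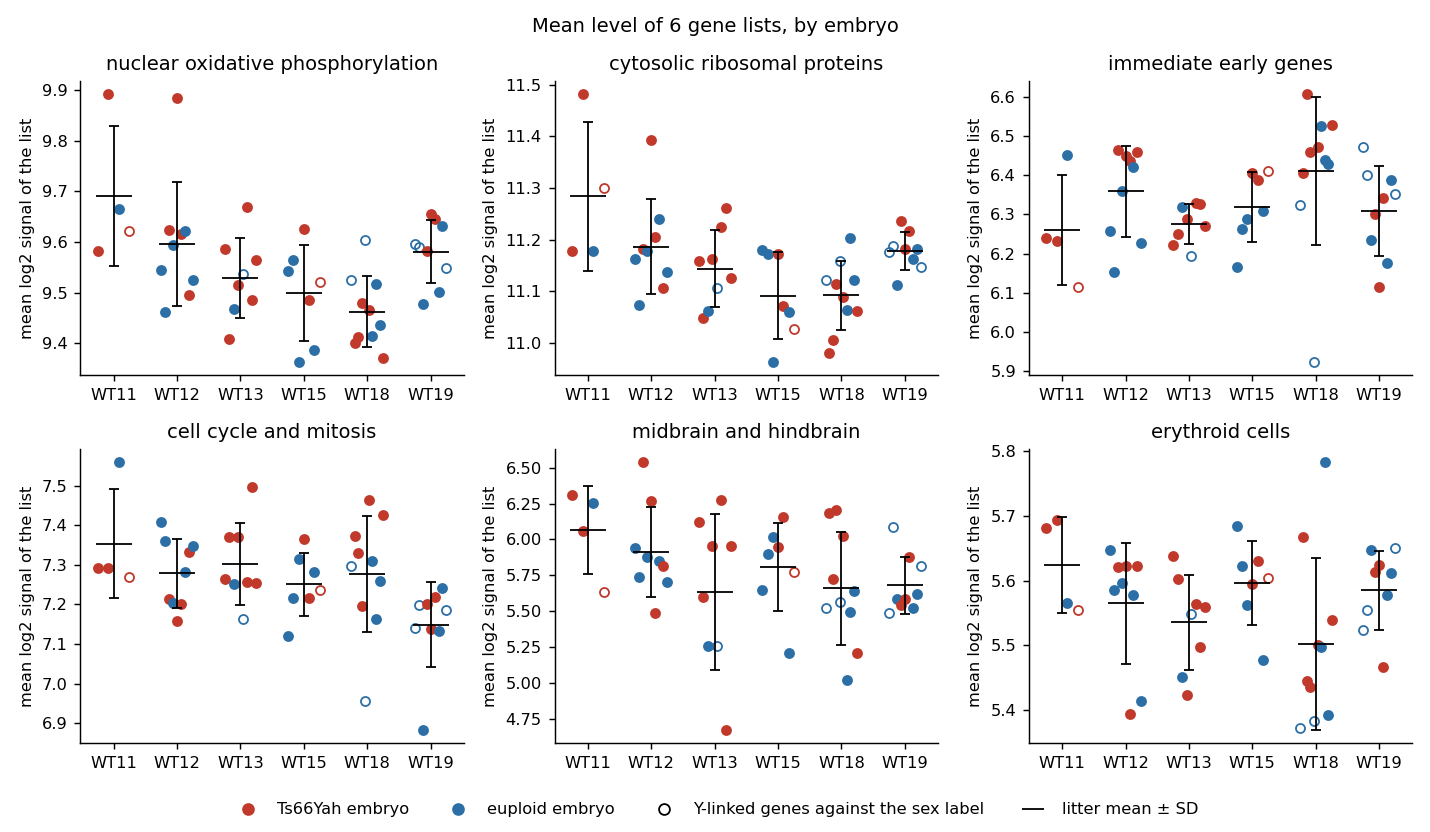
Mean log2 signal of 6 gene lists in each of the 47 embryos by litter (points, coloured by genotype and open for the doubtful embryos; bars are the litter mean ± SD). WT11 is highest and WT18 lowest for the oxidative phosphorylation list, and all litters overlap for the erythroid and midbrain and hindbrain lists.

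Cat and Prxl2a, which encode catalase and a peroxiredoxin-like protein of the cell's antioxidant systems, had their lowest litter mean in WT19 and their highest in WT13. The log2 signal of Cat ran from 10.14 to 10.85 in WT13 with a median of 10.52, and from 9.28 to 10.14 in WT19 with a median of 9.91. The 4 WT11 embryos read 10.5, 10.53, 10.47 and 10.25. WT12, WT15 and WT18 had Cat medians of 9.98, 10.26 and 9.9. The means spanned 1.59-fold (adjusted p = 0.024 by limma's F test), and WT19 lay below the median of the other litters in 9 of 9 embryos. Against the other litters WT19 had a log2 difference in Cat of -0.42 ± 0.097 SE, which did not pass (adjusted p = 0.13), and -0.52 ± 0.11 SE without the 8 doubtful embryos, which did (adjusted p = 0.042, both by limma).

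Prxl2a had medians of 9.87 in WT11, 9.42 in WT12, 9.82 in WT13, 9.6 in WT15, 9.48 in WT18 and 9.14 in WT19. WT13, from 9.59 to 9.96, and WT19, from 8.51 to 9.46, did not overlap. Prxl2a was 0.707 of the other litters' level in WT19 (log2 difference -0.5 ± 0.094 SE, adjusted p = 0.051 by limma). Together with Cfap36, a cilia-associated protein, at 0.792 of the other litters' level (adjusted p = 0.096), and 1 further gene, Zmat2, it made up the 3 probe sets that passed in WT19 (0.0135%), all lower. Without the 3 embryos of contradicted genotype, 2 of which are in WT19, the count there was 0.

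WT18 against the other litters gave 16 probe sets (0.0721%), 12 higher and 4 lower. Besides the 5 genes above, those higher included Apold1, an endothelial immediate early gene (adjusted p = 0.091), and Vegfa, the hypoxia-induced angiogenic factor, which was 1.26-fold higher (log2 difference 0.34 ± 0.076 SE, adjusted p = 0.093 by limma). The 4 lower were Lhfpl4, which anchors GABA-A receptors at inhibitory synapses (log2 difference -0.44, adjusted p = 0.035), Lrrtm1, a synaptic adhesion protein (-0.3, adjusted p = 0.093), Prokr2, a prokineticin receptor (-0.5, adjusted p = 0.091), and Myh7b, a myosin heavy chain (-0.56, adjusted p = 0.093). Without the 8 doubtful embryos the count in WT18 was 173 (0.779%), 106 higher and 67 lower. In WT19 it was 182 (0.82%), 81 higher and 101 lower, with Prxl2a and the synaptic vesicle fusion protein Snap25 (log2 difference -0.58 ± 0.12 SE, adjusted p = 0.029) among the lower.

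WT13 against the other litters gave 5 probe sets (0.0225%), all higher, of which 4 have a gene name. Ccl27a, a skin-homing chemokine gene with near-identical copies on chromosome 4, was 1.6-fold higher (log2 difference 0.68 ± 0.14 SE, adjusted p = 0.089 by limma; 0.17 without the 8 doubtful embryos). Its 8 values ran from 10.18 to 10.91, and no embryo of another litter was above the WT13 median of 10.72. Dnajb7, a member of the DnaJ co-chaperone family, was 1.8-fold higher but dim, at a median of 4.15 log2 units in WT13. Utp3, a factor of ribosome assembly, was 1.28-fold higher and 5730507C01Rik 1.38-fold. WT12 and WT15 had 0 probe sets past the threshold (0% each). At an unadjusted p under 0.05, limma gave 417 higher and 432 lower in WT12, and 486 and 656 in WT15.

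None of the 173 probe sets in the 10 stage lists passed the F test, and 22 (12.7%) had an unadjusted p under 0.05, beside 11.5% overall. The smallest adjusted p was that of Sox2, the transcription factor of radial glia, at 0.11. Its medians were 9.48 in WT11, 9.79 in WT13, 9.89 in WT19 and 10.11 in WT18. Snap25 followed with an adjusted p of 0.14 and medians of 11.23 in WT11, 11.23 in WT13 and 10.64 in WT19. When the 8 doubtful embryos were left out, Sox2 (0.096), Snap25 (0.071) and Btg2 (0.099), an antiproliferative gene of neurogenic progenitors, passed in limma's F test, 3 of the 469 probe sets in the stage, region and blood lists together (0.64%, beside 0.603% of all probe sets). In that fit 66 of the 469 (14.1%) had an unadjusted p under 0.05, beside 13.3% of all probe sets. With all 47 embryos, 4 of 35 in the cell cycle list had an unadjusted p under 0.05. The counts were 1 of 14 in myelin, 0 of 18 in astrocytes, 2 of 17 in cortical layer neurons and 2 of 14 in young neurons. Among intermediate progenitor genes 4 of 11 did, led by Hes6 (adjusted p = 0.21). Against the other litters, WT19 was higher at 3 of the 35 cell cycle probe sets (median log2 difference -0.11) and WT11 at 28 (0.08). In Ts66Yah and euploid embryos WT19 was higher at 8 and 4, and WT11 at 17 and 34. Of the 17 cortical layer probe sets, WT18 was higher at 15, WT11 at 3 and WT19 at 4. Over all probe sets the shares were 47.1% in WT18, 51.5% in WT11 and 49.5% in WT19.

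Single markers of stage did not pass. Mki67, a protein of dividing cells, had an adjusted p of 0.65 and medians of 9.32 in WT11, 9.23 in WT18 and 8.97 in WT19. Dcx, of migrating neurons, had medians of 11.87 in WT11 and 12.12 in WT13 (adjusted p = 0.78). Mbp, of myelin, ran from 5.45 to 7.88 within WT18 alone and had an adjusted p of 0.6. Gfap, of astrocytes, had an adjusted p of 0.72. A p above the threshold does not show equal stage, and the residual SD of a probe set within litters had a median of 0.31 log2 units.

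None of the 226 probe sets in the 14 region lists passed, and 23 (10.2%) had an unadjusted p under 0.05, beside 11.5% overall. The smallest adjusted p was 0.12, for Slc2a1, the glucose transporter of brain endothelium, whose medians were 10.46 in WT15, 10.82 in WT19 and 10.83 in WT18. Midbrain and hindbrain genes, dim at a median signal of 5.42, had a median range of litter means of 0.55. Of their 31 probe sets, 3 (9.68%) had an unadjusted p under 0.05 in the F test, beside 11.5% of all probe sets. In WT11 28 of the 31 were above the other litters and in WT12 24, each with a median log2 difference of 0.17, beside 51.5% and 53% of all probe sets. In WT13 5 of the 31 were, with a median of -0.19, beside 50.5%. The WT11 median was 0.05 in its Ts66Yah embryos and 0.73 in its 1 euploid embryo, and that of WT13 -0.14 and -0.47. Without the 8 doubtful embryos the medians were 0.43 in WT11, 0.11 in WT12 and -0.29 in WT13. WT11 then held 3 embryos. The 1 left out, replicate 4, had the lowest list mean of that litter, 5.64, beside 6.06 to 6.31 in its littermates. Hoxb5, a hindbrain gene, ran from 2.74 to 5.6 in WT19 and from 4.96 to 6.17 in WT11, with an adjusted p of 0.3. En2, of midbrain and cerebellum, had an adjusted p of 0.73 and a spread of 4.02 to 7.17 within WT13. Ttr, the marker of choroid plexus, had medians of 12.07 in WT19, 12.32 in WT11 and 12.33 in WT15 (adjusted p = 0.93). No hypothalamus, hippocampus, striatum, telencephalon or pituitary probe set had an unadjusted p under 0.05. The largest shares were 3 of 11 in ependyma (27.3%), 4 of 21 in endothelium (19%) and 4 of 22 in muscle, cartilage, bone, skin and lens (18.2%). WT19 was above the other litters at 10 of the 11 ependyma probe sets (median log2 difference 0.18), and at 9 (0.13) without the 8 doubtful embryos. Of these 11, 2 were at or above the median signal of the table.

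Of the 74 probe sets in the 5 blood lists with measured genes, none passed. An unadjusted p under 0.05 was found for 5 (6.76%), beside 11.5% of all probe sets. The embryonic globins Hba-x, Hbb-y and Hbb-bh1 gave adjusted p values of 0.88, 0.97 and 0.81. Hba-x had medians of 4.49 in WT13, 4.71 in WT18, 4.79 in WT19 and 4.89 in WT11, all below the table's median signal. Alas2, which starts haem synthesis in erythroid cells, had medians of 6.74 in WT11 and 6.42 in WT18 (adjusted p = 0.76). None of the 6 adult globin genes has a named probe set here. Across embryos the erythroid list averaged 5.37 to 5.78 in WT18 and 5.55 to 5.69 in WT11.

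**Figure D4:**
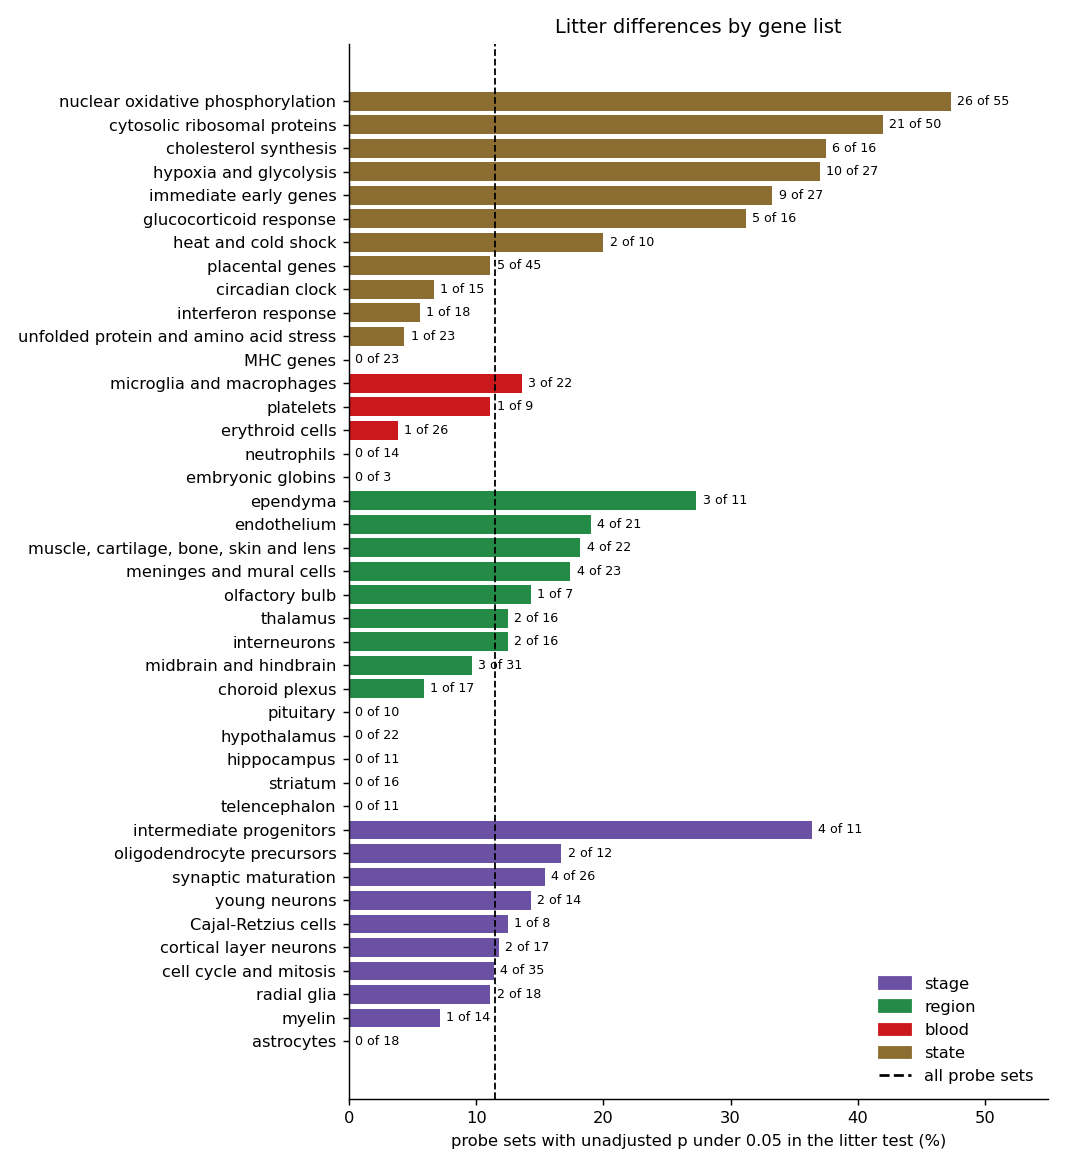
Share of each gene list's probe sets with an unadjusted p under 0.05 in the litter test (horizontal axis in percent, coloured by kind of list, with the number of probe sets beside each bar); the dashed line is the 11.5% over all probe sets. Stage, region and blood lists scatter around the line, and the lists of oxidative phosphorylation (47.3%) and ribosomal proteins (42%) reach farthest past it.

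Other lists of cell state were counted at an unadjusted p under 0.05 as well. The share was 11.5% of all probe sets and 15.1% of those at or above the median signal. The hypoxia and glycolysis list had 10 of 27 (37%), led by Vegfa with an adjusted p of 0.1 in the F test, and the glucocorticoid response list 5 of 16. Cholesterol synthesis had 6 of 16 (37.5%), led by the mevalonate kinase gene Mvk (adjusted p = 0.17). Interferon response and major histocompatibility genes had 1 of 18 and 0 of 23. The placental list had 5 of 45, and WT13, like WT11, was above the other litters at most of it (38 of 45, median log2 difference 0.29). Of the 325 probe sets in the 12 state lists, only Ccn1 and Jun passed in the F test over the whole table. For cholesterol synthesis WT12, WT15 and WT18 were each above the other litters at 14 of 16, WT19 at 11, WT13 at 4 and WT11 at 2. Without the 8 doubtful embryos 10 of these 16 (62.5%) had an unadjusted p under 0.05, beside 13.3% of all probe sets. In that fit oxidative phosphorylation had 28 of 55 (50.9%), ribosomal proteins 19 of 50 (38%) and hypoxia and glycolysis 10 of 27 (37%).

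The number of calls moved widely with the set of probe sets and arrays tested. Over the 11103 probe sets at or above the median signal 419 were called (3.77%), including 9 of 50 ribosomal protein, 6 of 55 oxidative phosphorylation and 4 of 9 immediate early probe sets. Of 276 bright probe sets in the stage, region and blood lists, 6 were called there (2.17%). Without the 5 narrower arrays, an alternative chosen after seeing the data, 991 of 22206 were called (4.46%), among them 14 oxidative phosphorylation and 13 ribosomal protein probe sets. The stage, region and blood lists then gave 10 of 469. With WT18 replicate 9 included the count was 0, and without litter WT13 it was also 0. Without WT18 it was 2.

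**Figure D5:**
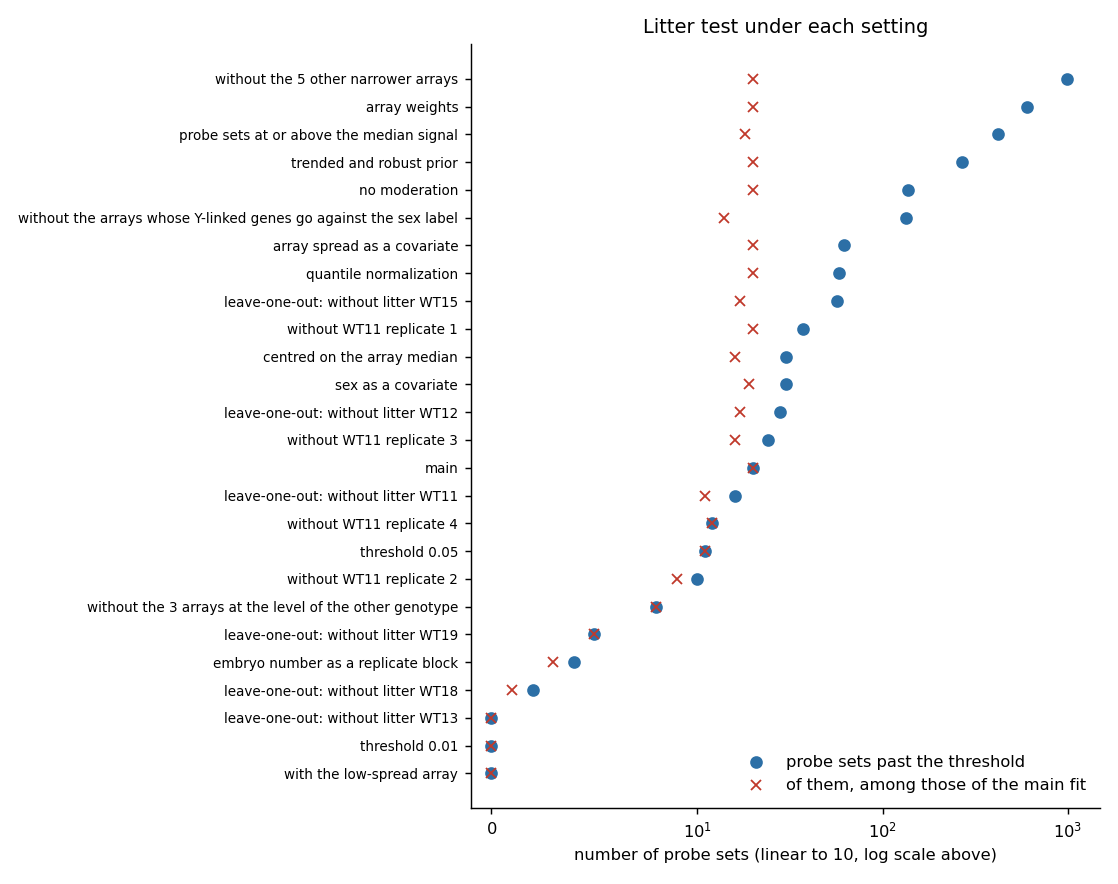
Number of probe sets past the threshold of the litter test under each setting (points; the axis is linear to 10 and logarithmic above) and how many of them are among the 20 reported above (crosses). The count runs from 0 to 991, and settings with more than 20 calls keep between 14 and 20 of the 20.

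Tested within each genotype, litters differed at 51 probe sets in the 24 Ts66Yah embryos (0.23%) and at 0 in the 23 euploid embryos (0%). In the euploid embryos 4.17% had an unadjusted p under 0.05 (927 probe sets by limma). The median residual SD was 0.28 in Ts66Yah and 0.33 in euploid embryos, and WT11 has a single euploid embryo. Arrdc3 (adjusted p = 1.6e-05), Dusp1 (0.0019) and Ccn1 (0.006) led the Ts66Yah embryos. Of the 51, 4 also had an unadjusted p under 0.05 in euploid embryos (7.84%), among them Prxl2a (p = 0.0039) and Snap25 (p = 0.013, limma F tests).

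For Ccn1 the log2 difference between WT18 and the other litters was 1.03 ± 0.13 SE in Ts66Yah and 0.6 ± 0.24 SE in euploid embryos. For Arrdc3 it was 0.95 ± 0.073 SE and 0.46 ± 0.22 SE, and for H1f3 0.45 ± 0.12 SE and 0.59 ± 0.16 SE. The test of that difference itself, the litter by genotype interaction, gave adjusted p values of 0.89 for Ccn1, 0.86 for Arrdc3 and 0.94 for H1f3. Over the immediate early list WT18 was higher at 23 of 27 in Ts66Yah embryos (median 0.11) and at 13 of 27 in euploid embryos (median -0.01). All 5 doubtful embryos of WT18 and WT19 are labelled euploid, and WT19 replicate 10 is among the 3 of contradicted genotype. Over the whole table the interaction passed at 2 probe sets (0.00901%), Rnf133 and Chrnb3, both dim.

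The 41 embryos of the Ts65Dn colony, from 6 litters of their own and fitted separately, gave 84 calls in the same test (0.378%), and 10.7% had an unadjusted p under 0.05. None of the 20 Ts66Yah-colony probe sets was among the 84, and 6 of the 20 had an unadjusted p under 0.05 there. In the other direction, 30 of the 84 (35.7%) had an unadjusted p under 0.05 in the Ts66Yah colony, beside 11.5% of all probe sets. Ccl27a was among these (adjusted p = 0.0013 there, 0.14 here), and 6 of the 30 belong to the Ccl27a and Fam205a copies on chromosome 4, whose probe sets can share signal. Probe sets of 4933409K07Rik, Gm3893, LOC100861978 and Gm10591, also placed on chromosome 4 or its unlocalized pieces, were among the 30 too. Their unadjusted p values here were 0.022, 0.01, 0.00042 and 0.042 by limma's F test. The 30 are therefore not all separate observations. Of the 53 replication-dependent histone probe sets, 32 had an unadjusted p under 0.05 in the Ts65Dn colony and 8 were called. Oxidative phosphorylation gave 16 of 55 (29.1%) and ribosomal proteins 12 of 50 (24%). The 2 colonies share no embryo, and the histone group was listed after both sets of values were seen.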

How the data were processed

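Forebrain RNA of 89 E18.5 embryos was hybridised to Clariom S arrays, 1 embryo per array. The deposited values are log2 signals per probe set made by the authors with RMA, per the submitters' processing notes. No source used here names a genome build for the probe sets. The colonies lie at different levels in this table and were fitted separately. Of 22206 probe sets, 19572 have 1 gene symbol in the platform annotation, 2634 have none and 0 have several; symbols were brought up to date through RefSeq.

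Per probe set, a linear model with litter and genotype was fitted in limma 3.58.1 (R 4.3.3), with eBayes moderation and Benjamini-Hochberg adjustment over all probe sets at 10%, the rate the series text uses. Each litter was also set against the equally weighted mean of the other 5, and a litter by genotype interaction was tested. Values after ± are moderated standard errors. Each embryo is 1 replicate of its litter; embryos of a litter share a dam, so p-values measure the spread between littermates. The scripts were tested on simulated data.

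Genes named in the text are those of a rule: the 15 with the smallest p of the F test, the 15 with the widest litter range among those called, up to 5 in each direction per litter, up to 6 leading members per list, fixed markers, and interaction genes. Dusp1, Apold1 and Btg2, and the histone and Ccl27a groups, fall outside it and were chosen after their values were seen. So were the further chromosome 4 probe sets named with the Ts65Dn colony. Members and lists were chosen with earlier results of these data known. Doubtful embryos were those whose mean of Kdm5d, Uty and Eif2s3y lay on the other side of the midpoint of its range from the labelled sex. The 3 embryos of contradicted genotype were found likewise from the triplicated genes, and narrower arrays had an SD over 2 median absolute deviations below the median. Alternatives were sex, array spread and embryo number as covariates, a filter on dim probe sets, centring, quantile normalization, other priors, array weights, thresholds, arrays and litters left out, and the methods' t-test. The group sizes in the series text add up to 1 more than the 89 arrays. No scan date or array batch is labelled.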

Additional observations from a re-analysis of the deposited data

Results flagged for a closer look

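Within litters, 9 of 114 groups of values held an embryo standing apart from its littermates by Dixon's criterion (7.89%), where chance gives about 1 in 20. Both genotypes of a litter were pooled for this. In WT18, H1f2 was 6.62 in replicate 1 (nearest littermate 7.36) and Uqcc2 was 9.11 in replicate 5 (nearest 8.76), both doubtful embryos. WT11 replicate 4, also doubtful, was low for Prxl2a at 9.55 (nearest 9.86). In WT11 replicate 2, Safb2 was low at 6.75 (nearest 7.33) and Zmat2 at 9.58 (nearest 9.66). In WT15 replicate 5, Jun was high at 8.9 (nearest 8.59) and Luc7l low at 8.83 (nearest 9.08). Pmm1 was 8.69 in WT19 replicate 3 (nearest 8.53), and Uqcc2 was 9.6 in WT12 replicate 6 (nearest 9.11).

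The litter by genotype interaction passed for 2 dim genes, Rnf133 (adjusted p = 0.018) and Chrnb3 (adjusted p = 0.066 by limma). For Rnf133 the difference between Ts66Yah and euploid embryos was 0.96 in WT13, 0.76 in WT18 and -0.54 in WT15 on the log2 scale. For Chrnb3 it was -2.16 in WT13, where 2 euploid embryos averaged 5.95, and 0.96 in WT11, which has 1 euploid embryo. Of the 2 euploid WT13 embryos, replicate 5 is doubtful, and the labelled genotype of WT13 replicate 8 is contradicted. Without the 3 embryos of contradicted genotype 1 probe set passed.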

How the results depend on the processing

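Counts of probe sets past the threshold are given in the order F test, WT11, WT13, WT18, WT19 and interaction, where the reported test gave 20, 1, 5, 16, 3 and 2. They were 0, 0, 0, 3, 0 and 0 with WT18 replicate 9 included, 11, 0, 0, 7, 0 and 1 at a threshold of 0.05, and 0, 0, 0, 2, 0 and 0 at 0.01. Over bright probe sets they were 419, 52, 80, 63, 93 and 0. Without moderation they were 137, 42, 13, 39, 12 and 1. Without the 3 embryos of contradicted genotype they were 8, 0, 1, 8, 0 and 1, and without the 8 doubtful embryos 134, 0, 9, 173, 182 and 0. Without the 5 narrower arrays, chosen after seeing the data, they were 991, 102, 26, 509, 458 and 1. With the embryo number as a replicate block they were 4, 0, 11, 0, 0 and 0, but the numbers do not pair embryos: over 86 pairs of the same number in different litters the median correlation of deviations was 0.00041, and 20 pairs were over 0.1.

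Other settings moved some counts only. A trended and robust prior gave 269 for the F test, 49 in WT11, 39 in WT13, 38 in WT18 and 13 in WT19. Array weights gave 602, 3, 89, 466 and 168 in that order, and 1 in WT15. Quantile normalization gave 58 for the F test, 3 in WT11, 27 in WT18, 5 in WT19 and 1 for the interaction. Array spread as a covariate gave 62 for the F test, 7 in WT11, 21 in WT13 and 41 in WT18. Centring gave 7 in WT11, 27 in WT18 and 1 in WT19, and sex as a covariate 19 in WT13. The methods' t-test gave 48 in WT11, 0 in WT13, 9 in WT18 and 10 in WT19 after adjustment, and by the study's marginal criterion (a ratio under 0.8 or over 1.2 at an unadjusted p under 0.01) 466, 68, 203, 106, 211 and 373 in the 6 litters.

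Leaving out 1 litter or 1 WT11 embryo gave 0 to 57 for the F test (0 without WT13, 2 without WT18, 5 without WT19, 57 without WT15), 0 to 52 in WT11, 0 to 51 in WT13, 3 to 22 in WT18, 0 to 44 in WT19 and 0 to 2 for the interaction. Without WT11 the counts within genotypes were 15 in Ts66Yah and 1 in euploid embryos, and in the Ts65Dn colony leaving out litters gave 47 to 151. Ccn1, Arrdc3, Jun, H1f3, Prxl2a and Uqcr10 each passed the F test in 20 of 25 settings. Fewest were 11 of 25 for Kmt5a, 11 of 24 for Dnajb7 and 12 of 25 for Luc7l. Anapc13, Zmat2 and Trp53i11 each passed in 13 of 25. Why the counts moved was not tested.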

Other observations

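The Ccl27a and Fam205a group on chromosome 4, near-identical copies listed after the values were seen, had 12 probe sets. In the Ts66Yah colony WT13 was above the other litters at 11 of the 12, with a median log2 difference of 0.53, and WT11 at 1 of 12, with -0.47. None passed the F test and 6 had an unadjusted p under 0.05. In the Ts65Dn colony 6 of the 12 passed and 9 (75%) had an unadjusted p under 0.05. Their probe sets can share signal.

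Prxl2a was lowest within WT18 in replicates 5 (8.71) and 1 (8.85), both doubtful, and Cat was lowest there in replicate 1, at 9.36.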
